A study of Mus musculus with 60 samples.

Results

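Nascent RNA was compared between mouse embryonic stem cells (mESCs) that had lost the YF-AA mutant of CTCF for 2 h and untreated cells of the same line. The comparison used every library labelled as a control or as a 2 h dTAG-13 sample of the CTCF Y226A/F228A line, which gave 2 control and 2 treated libraries, 4 of the 60 in the series. Genes entered with a mean count above 20 in either group. Of 27665 counted transcripts, 14009 did so, and the lowest of them had a mean count of 20.5 in its higher group, while those at 20 or below were left out.

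CTCF is a zinc finger protein that binds DNA at a long, oriented motif and stops the cohesin complex as it extrudes chromatin loops. Its N-terminal part holds the YF residues that contact cohesin, and mutating both to alanine is known to remove the loops anchored at CTCF sites while the protein still binds DNA. CTCF also binds close to the start sites of many genes, where the motif often lies just upstream and points along the direction of transcription. Removing the mutant protein is therefore meant to take CTCF from promoters in cells that already lack loop anchoring. Neither promoter occupancy nor loops were measured in these libraries.

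All 4 libraries came from E14 mESCs with the genotype GFP-FKBP12F36V-Ctcf (Y226A/F228A), grown in N2B27 medium with 2i/LIF. Both Ctcf alleles had been edited, so the control cells carried the mutation and the degron tag as well. The FKBP12 tag binds dTAG-13, a small molecule that recruits an E3 ligase and leads to degradation of the tagged protein. Treated cells received 200 nM dTAG13 for 2 h according to the labels, and the label of the controls reads only Control. No line with unmutated CTCF and this tag was among the samples, and the labels do not say whether replicates came from separate cultures, so p-values measure the spread between these libraries. Cells were pulsed with 5-EU, a uridine analog, and the labelled RNA was captured and sequenced (EU-seq), which reports RNA made during the pulse rather than the standing pool.

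Control libraries held 4027449 and 10401709 counts in replicates 1 and 2, and the 2 h libraries held 4275802 and 9061772, so replicate 1 was the shallower in both groups. The Pearson correlation of log CPM between replicates, across genes, was 0.989 in control and 0.988 at 2 h. Ctcf itself measured 306 and 298 CPM (counts per 1e6 counts) in control and 301 and 294 at 2 h, with a log2 difference of -0.01 ± 0.06 (SE). The degron acts on the protein, so this RNA does not test the labels.

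The promoters below show the sequence context of genes that lost and did not lose nascent RNA. They run 5′ to 3′ along the gene's strand, come from RefSeq on GRCm38, and cover 250 bases before to 50 bases after the RefSeq start site. Capitals mark a match to a short form of the core CTCF motif in either orientation, which is CCA, 2 bases of any kind, AG, 2 bases of any kind and GGC. The first 3 fell at 2 h and hold an exact match. Adprhl2 lies at chr4:126321654-126321953 on the minus strand and Ndufaf4 at chr4:24897833-24898132 on the plus strand, each with the match in the sense orientation, its first base 56 bases upstream of the start site. Dennd6b lies at chr15:89196425-89196724 on the minus strand and holds the match in reverse, with its first base 180 bases upstream. Ndufaf4 was chosen after its values were seen, because its match sits where that of Adprhl2 does.
Adprhl2: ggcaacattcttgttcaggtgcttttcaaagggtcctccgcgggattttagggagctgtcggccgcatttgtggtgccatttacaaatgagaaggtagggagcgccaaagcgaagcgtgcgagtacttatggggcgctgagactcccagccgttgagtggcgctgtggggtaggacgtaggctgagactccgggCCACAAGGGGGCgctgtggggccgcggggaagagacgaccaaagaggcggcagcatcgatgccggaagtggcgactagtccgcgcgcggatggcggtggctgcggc
Ndufaf4: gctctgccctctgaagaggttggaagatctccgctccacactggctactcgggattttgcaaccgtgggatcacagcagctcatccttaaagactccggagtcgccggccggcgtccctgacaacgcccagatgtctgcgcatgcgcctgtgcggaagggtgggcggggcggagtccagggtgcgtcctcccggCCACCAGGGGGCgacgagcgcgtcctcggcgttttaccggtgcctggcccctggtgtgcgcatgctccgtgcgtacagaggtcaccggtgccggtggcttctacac
Dennd6b: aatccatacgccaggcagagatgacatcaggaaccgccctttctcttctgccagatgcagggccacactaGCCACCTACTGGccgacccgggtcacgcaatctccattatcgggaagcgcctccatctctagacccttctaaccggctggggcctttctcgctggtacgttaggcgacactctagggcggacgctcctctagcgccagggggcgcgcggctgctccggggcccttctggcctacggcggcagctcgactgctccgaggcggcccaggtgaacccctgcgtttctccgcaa

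Nle1 at chr11:82908346-82908645 on the minus strand and Mrpl23 at chr7:142532782-142533081 on the plus strand also fell, but held no exact match. Capitals in these mark the place with 1 mismatch, in the sense orientation 56 bases upstream in Nle1 and in reverse 148 bases upstream in Mrpl23. A match with at most 1 mismatch was in 38% of promoters of all tested genes. The study counts Mrpl23 among reporter promoters whose activity fell when their CTCF motif was mutated. The place marked in Mrpl23 need not be that motif, which the short form can miss.
Nle1: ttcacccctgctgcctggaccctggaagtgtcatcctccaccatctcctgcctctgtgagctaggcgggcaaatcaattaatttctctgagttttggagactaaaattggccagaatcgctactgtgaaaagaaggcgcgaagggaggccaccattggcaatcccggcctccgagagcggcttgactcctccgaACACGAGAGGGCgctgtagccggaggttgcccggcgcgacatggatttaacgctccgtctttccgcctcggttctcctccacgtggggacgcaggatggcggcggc
Mrpl23: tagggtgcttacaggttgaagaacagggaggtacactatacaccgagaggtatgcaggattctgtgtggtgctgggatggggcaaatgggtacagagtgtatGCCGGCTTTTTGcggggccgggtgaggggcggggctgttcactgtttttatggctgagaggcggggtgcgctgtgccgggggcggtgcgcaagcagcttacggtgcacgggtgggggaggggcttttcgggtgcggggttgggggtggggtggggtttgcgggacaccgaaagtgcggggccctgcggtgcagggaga

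Lsm11 at chr11:45944886-45945185 on the minus strand rose at 2 h and holds an exact match in reverse, 103 bases upstream. Parp3, whose promoter is not printed, also rose. It holds a place with 1 mismatch in the sense orientation, 57 bases upstream, close to where that of Nle1 lies. Actn4 at chr7:28962283-28962582 on the minus strand did not pass the test and holds no match, even with 1 mismatch.
Lsm11: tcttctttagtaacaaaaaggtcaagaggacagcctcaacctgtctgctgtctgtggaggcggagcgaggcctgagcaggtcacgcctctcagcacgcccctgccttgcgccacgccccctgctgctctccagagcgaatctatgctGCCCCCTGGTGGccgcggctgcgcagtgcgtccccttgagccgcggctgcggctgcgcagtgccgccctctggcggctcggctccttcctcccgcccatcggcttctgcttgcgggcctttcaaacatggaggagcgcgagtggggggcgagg
Actn4: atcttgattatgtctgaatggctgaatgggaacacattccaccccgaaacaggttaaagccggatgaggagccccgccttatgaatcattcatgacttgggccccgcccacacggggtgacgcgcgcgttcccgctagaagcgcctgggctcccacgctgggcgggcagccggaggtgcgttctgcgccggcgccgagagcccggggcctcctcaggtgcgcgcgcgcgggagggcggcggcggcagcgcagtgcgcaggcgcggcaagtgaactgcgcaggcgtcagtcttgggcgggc

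A small set of genes changed by 2-fold or more after 2 h, most of them downward. With edgeR's quasi-likelihood test, an adjusted p under 0.05 and at least a 2-fold change, 93 genes were lower (0.664% of the 14009 tested) and 21 were higher (0.15%). DESeq2 called 64 lower and 4 higher by the same limits, so the split between lower and higher depends on the tool. At an adjusted p under 0.05 without a fold limit, edgeR gave 378 lower (2.7%) and 174 higher (1.24%). The median fold among called genes was 2.59 for the lower and 2.56 for the higher. All 93 and all 21 had groups that did not overlap, against 21% of all genes lower and 20.5% higher without overlap.

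**Figure D1:**
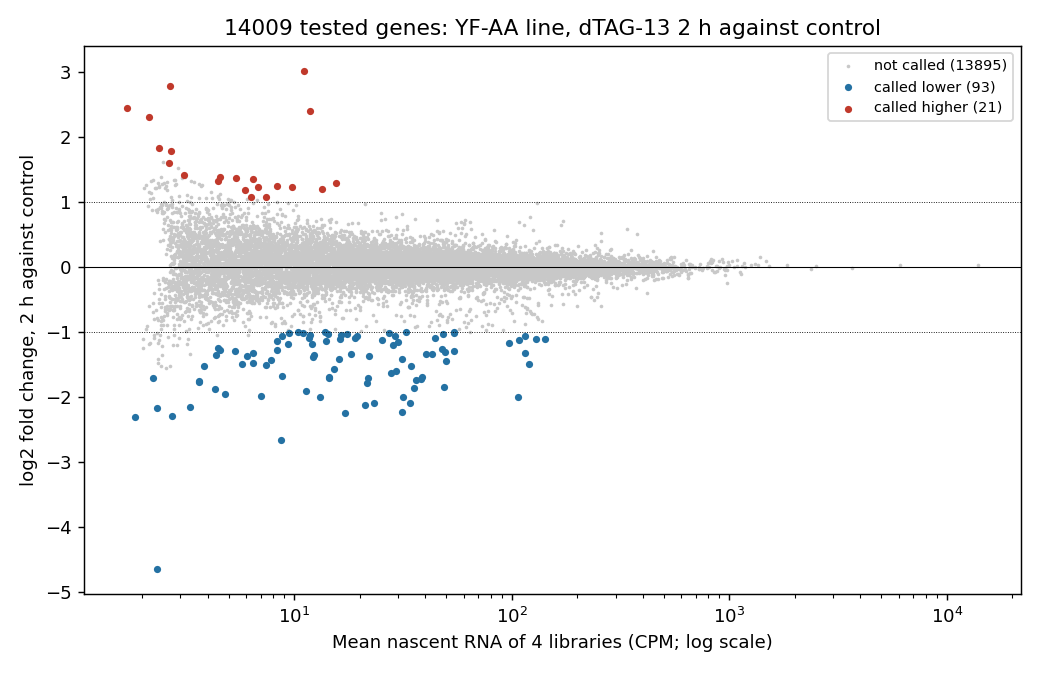
Each point is 1 of the 14009 tested genes, with its mean nascent RNA over the 4 libraries (CPM, log scale) on the x axis and its log2 fold change at 2 h on the y axis. The 93 genes called lower and 21 called higher are colored, dotted lines mark 2-fold.

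Called lower genes spanned many levels and chromosomes. Among them 48 were expressed above 15 TPM (length-scaled counts over the gene body), 14 fell at least 4-fold and 87 were protein coding. Their median level in control was 24 TPM, close to the 29.2 TPM of all tested genes. Of the 21 higher genes, 5 were expressed above the limit. Genes could enter the test through their treated libraries alone, so the control levels of lower and higher genes were not compared. The lower genes were spread over 18 chromosomes and had a median length of 18.4 kb, against 24.9 kb for all tested genes. Among the 9330 expressed genes, 8058 (86.4%) moved by less than 1.2-fold in either direction, while 51 fell by more than 2-fold and 12 rose by more than 2-fold. A further 114 fell and 79 rose by 1.5 to 2-fold, and 177 fell and 210 rose by 1.3 to 1.5-fold. Of the 177, 60 had an adjusted p under 0.05, as did 46 of the 210. The share that rose by more than 2-fold was 0.129%, and 0.569% without control replicate 2.

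The largest decreases among expressed genes included genes for protein synthesis, ADP-ribose removal and kinase signaling. Snhg17, a long noncoding RNA that hosts a small nucleolar RNA, had the smallest p-value, with 174 and 168 CPM in control and 41.8 and 42.6 CPM at 2 h. Both treated libraries were far below both controls, and the log2 change was -2.003 ± 0.09 (SE; edgeR adjusted p = 3.42e-105). Its body, chr2:158355307-158361510 on the minus strand, shares 2.13% of its length with Gm23925, on the same strand.

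Adprhl2, the hydrolase that removes ADP-ribose from serine residues, measured 23.6 and 31.9 CPM in control and 7.71 and 4.97 CPM at 2 h. Both controls lay above both treated libraries, and the log2 change was -2.25 ± 0.22 (SE; edgeR adjusted p = 8.88e-23). Nle1, a factor for assembly of the large ribosomal subunit, went from 46.7 and 55.6 CPM to 12.9 and 9.93 CPM, again without overlap (log2 -2.23 ± 0.16, edgeR adjusted p = 1.3e-39). Dph7, an enzyme of diphthamide synthesis on elongation factor 2, went from 39.2 and 37.4 CPM to 6.55 and 10.2 CPM (log2 -2.10 ± 0.18).

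Tab1, which activates the kinase TAK1 downstream of cytokine receptors, had 81.1 and 73.3 CPM in control and 16.8 and 23.7 CPM at 2 h. Its groups did not overlap and the log2 change was -1.85 ± 0.13 (SE; edgeR adjusted p = 2.7e-44). Ttc5, a cofactor of p53 that also takes part in tubulin mRNA decay, went from 56.5 and 55.2 CPM to 15.4 and 15 CPM (log2 -1.87 ± 0.15). Mrps2, a protein of the small mitochondrial ribosomal subunit, went from 48.2 and 61.9 CPM to 21.5 and 14 CPM (log2 -1.74 ± 0.15). In each of these the spread between replicates was small against the difference between groups.

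Saal1 went from 51 and 50.7 CPM to 13.1 and 12.3 CPM, a log2 change of -2.01 ± 0.16. Zbtb39, a zinc finger protein gene, changed by -1.71 ± 0.18 on the log2 scale, Cdkn2aipnl by -1.53 ± 0.15, and Slc48a1, a heme transporter, by -1.51 ± 0.32. The largest edgeR adjusted p of these was 0.000133, for Slc48a1. A pair of genes on chromosome 10 fell together: 1700021F05Rik by 2.10 and Gm47889 by 1.73 on the log2 scale. 1700021F05Rik lies wholly opposite Gm47889, and without stated use of strand in the counting their reads cannot be told apart. Gm5741 had 3.77 and 2.62 CPM in control and 0.234 and 0.773 CPM at 2 h, from 15 and 27 counts against 1 and 7. Its log2 change of -2.32 ± 0.63 had an edgeR adjusted p of 0.00896, which rose to 0.124 without control replicate 1 and to 0.153 without 2 h replicate 1.

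**Figure D2:**
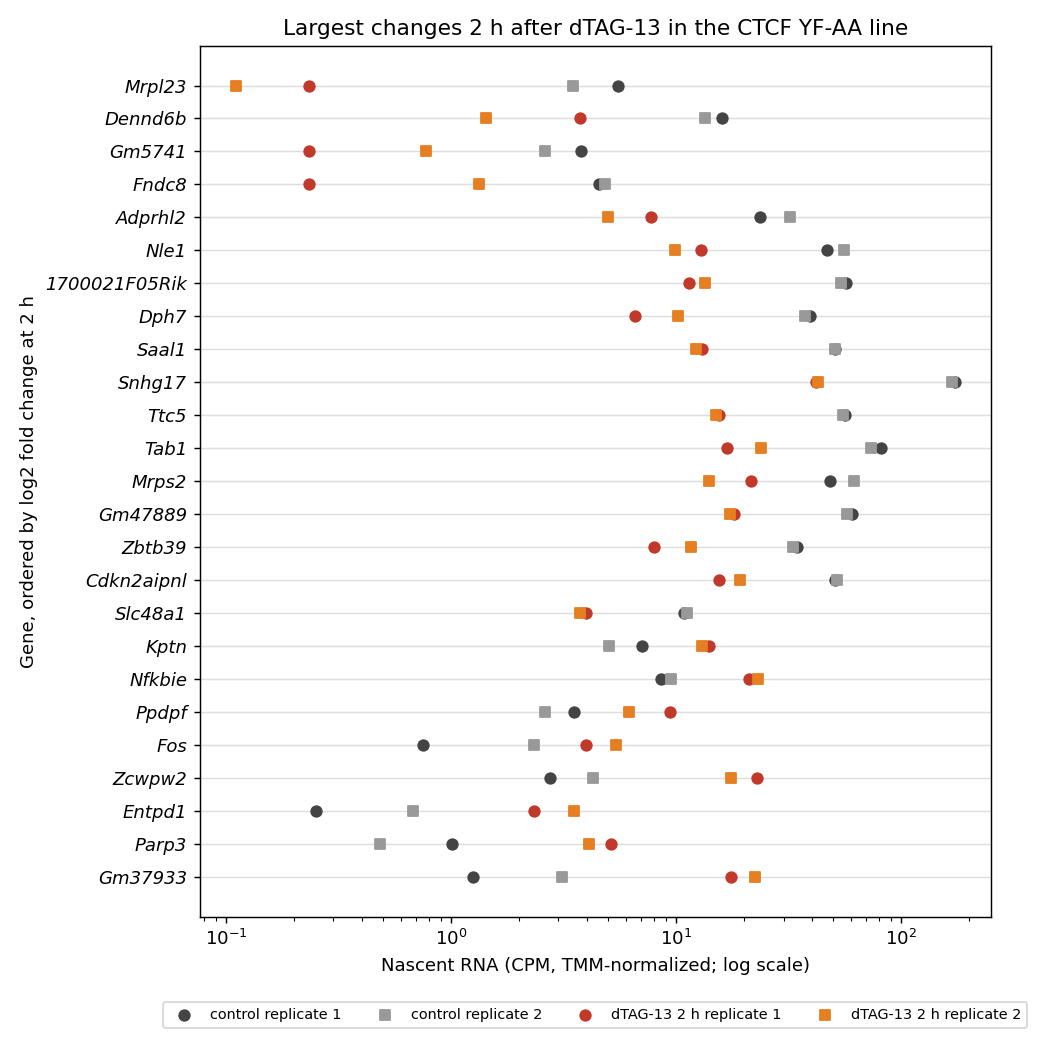
Nascent RNA (CPM, log scale) of the 25 genes with the largest called changes, ordered by log2 fold change, with 1 point for each library (gray, control, and red or orange, 2 h dTAG-13, replicates 1 and 2 as circles and squares). The 4 points of Snhg17 lie at 174 and 168 against 41.8 and 42.6 CPM. In all 25 genes the treated points lie on the same side of both controls, which the choice of these genes required.

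Among genes at low level, the largest decrease was that of Mrpl23, a protein of the large mitochondrial ribosomal subunit, which had 5.52 and 3.49 CPM in control and 0.234 and 0.11 CPM at 2 h. That rests on 58 counts in the control libraries together and 2 in the treated ones, a ratio of 27.1 after adjustment for library size, with a 95% interval of 7.16 to 229 that covers counting error only. The fitted log2 change was -4.66 ± 0.77 (SE; edgeR adjusted p = 1.64e-07). Dennd6b, a member of a family of Rab exchange factors, had 16.1 and 13.4 CPM in control and 3.74 and 1.43 CPM at 2 h (log2 -2.67 ± 0.34, edgeR adjusted p = 2.97e-13). Fndc8, which shares 0.39% of its length with Nle1 on the opposite strand, changed by -2.29 ± 0.52 (edgeR adjusted p = 0.000511, and 0.0536 without 2 h replicate 1).

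Several further called genes, picked after their values were seen, encode mitochondrial proteins. Mipep, a peptidase that processes imported proteins, had 69.8 and 50.2 CPM in control and 14.3 and 20.1 CPM at 2 h (log2 -1.69). Got2, the mitochondrial aspartate aminotransferase, went from 75.3 and 78.5 CPM to 31.6 and 30.9 CPM (log2 -1.30), and Tamm41, an enzyme on the route to cardiolipin, from 76.6 and 69.6 CPM to 25.7 and 26.9 CPM (log2 -1.44). None of these groups overlapped, as in all 93 called lower genes. Ndufaf4, an assembly factor of respiratory complex I, went from 39.4 and 39.6 CPM to 17.8 and 19.3 CPM (log2 -1.07). Its treated libraries also lay below both controls.

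Other called genes chosen the same way act in signaling or in the nucleus. Csnk2a2, a catalytic subunit of casein kinase 2, had 160 and 169 CPM in control and 64 and 66.6 CPM at 2 h (log2 -1.33 ± 0.08, edgeR adjusted p = 3.41e-54). Traf6, a ubiquitin ligase of Toll-like receptor signaling, changed by -1.10 ± 0.13, and Tirap, an adaptor of the same receptors, by -1.19 ± 0.24. Nbn, of the MRE11 complex that senses DNA breaks, changed by -1.27 ± 0.12, and Bak1, an effector of apoptosis, by -1.03 ± 0.23. Each of the 5 had treated libraries below both controls, as did all 93 called lower genes and 21% of all tested genes.

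Increases were fewer than decreases. Gm37933 had 1.26 and 3.11 CPM in control and 17.5 and 22.5 CPM at 2 h, with treated libraries far above both controls and a log2 change of 3.01 ± 0.29 (SE; edgeR adjusted p = 1.62e-22). Nfkbie, an inhibitor of NF-kappaB, had 8.53 and 9.51 CPM in control and 21 and 23.1 CPM at 2 h (log2 1.28 ± 0.21, edgeR adjusted p = 1.94e-07). Zcwpw2, whose counted transcript is annotated as a transcribed unprocessed pseudogene, went from 2.76 and 4.27 CPM to 22.9 and 17.5 CPM (log2 2.40 ± 0.27, edgeR adjusted p = 4.82e-16). In all 3, both treated libraries lay above both controls, as in all 21 called higher genes.

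The other increases were closer to the limit of the test. Kptn, a subunit of the KICSTOR complex of nutrient sensing, changed by 1.23 ± 0.28 (edgeR adjusted p = 0.000679, 0.18 without control replicate 2, and 0.0525 with DESeq2). Ppdpf changed by 1.36 ± 0.38 (0.0138, 0.314 without control replicate 2 and 0.312 without 2 h replicate 1). Fos, a subunit of the AP-1 transcription factor, had 0.753 and 2.33 CPM in control and 3.97 and 5.41 CPM at 2 h, and its edgeR adjusted p of 0.0454 rose to 0.454 without control replicate 1. Parp3, an ADP-ribosyltransferase of DNA repair, changed by 2.78 ± 0.57 (0.109 without control replicate 2), and Entpd1, an enzyme that degrades extracellular ATP, by 2.45 ± 0.63 (0.0874 without control replicate 1 and 0.0576 without control replicate 2).

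A shared position was seen among the increases after their values were known. Of the 21 called higher genes, 6 (28.6%) start within 1000 bases of another tested gene that runs the opposite way, against 10.9% of all tested genes and 0 of the 93 called lower genes. Gm37933 starts 55 bases from Rps3a1, a ribosomal protein gene, Parp3 320 bases from Rrp9 and Entpd1 164 bases from Tctn3. Grk4, Iqcd and Cyp39a1 start 231 bases from Nop14, 343 bases from Tpcn1 and 211 bases from Slc25a27. None of these 6 neighbors passed the test, with log2 changes of -0.03 to 0.07. Rps3a1 measured 146 and 137 CPM in control and 132 and 141 CPM at 2 h, so its groups overlapped while Gm37933 rose. In control Gm37933 had 5 and 32 counts, Parp3 4 and 5, and Entpd1 1 and 7. These entered the test through their treated libraries alone, so 28.6% and 10.9% are shares of genes that entered in unlike ways.

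Genes that the study named from the same data gave the following values, which are therefore no independent evidence of their direction. All 8 genes whose promoters were used in reporters as CTCF-activated were lower at an adjusted p under 0.05, 7 of them called. Of all tested genes, 2.7% were lower at that limit and 0.664% were called lower. The median log2 of the 8 was -1.58 against 0.01 over all tested genes. Besides Mrpl23, Ttc5, Tab1 and Mrps2 these included Polr2c, a subunit of RNA polymerase II, at 58.5 and 57.7 CPM in control and 22.7 and 23 CPM at 2 h (log2 -1.34 ± 0.14, edgeR adjusted p = 9.93e-21). Of the Polr2c body, 60.4% lies opposite Dok4. Dusp12, a phosphatase, changed by -1.43 ± 0.15 and Rabggta, a subunit of the enzyme that adds lipid anchors to Rab proteins, by -1.36 ± 0.25. Psmd6, a subunit of the proteasome lid, changed by -0.78 ± 0.12, short of 2-fold.

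Of the reporter genes named as CTCF-repressed, Lsm11, of the U7 snRNP that processes histone RNAs, had 49.7 and 47.5 CPM in control and 67.6 and 70.2 CPM at 2 h (log2 0.52 ± 0.11, edgeR adjusted p = 0.000154). Ocel1 changed by 0.38 ± 0.20 (edgeR adjusted p = 0.417) and 65.3% of its body lies opposite Nr2f6. The control promoters without a CTCF site belonged to Psmd4, with a log2 change of 0.00 ± 0.09, and Actn4, with -0.04 ± 0.05. Neither passed the test.

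Essential genes named as CTCF-activated were lower in 7 of 7 cases, 3 of them called, with a median log2 of -0.88. For this and the next lists, 2.7% of all tested genes were lower and 1.24% higher at an adjusted p under 0.05. Called lower were 0.664%. Wdr70 had 184 and 174 CPM in control and 55.9 and 67.5 CPM at 2 h, without overlap (log2 -1.49 ± 0.08). Polr3a, the largest subunit of RNA polymerase III, had 104 and 98.5 CPM in control and 56.3 and 53 CPM at 2 h (log2 -0.88 ± 0.10), and the splicing factor gene Rbm17 changed by -0.72 ± 0.08. Bysl, a factor for assembly of the small ribosomal subunit, changed by -0.77 ± 0.10. Of the examples named for RNA polymerase II signal, 8 of 8 in the lower group were lower, 5 of them called, among them Pabpc4, a poly(A)-binding protein gene, at 175 and 178 CPM in control and 79 and 82.7 CPM at 2 h (log2 -1.11 ± 0.08). Of the 4 examples named as higher, Mrps16 (0.58 ± 0.15, edgeR adjusted p = 0.00626, but 0.251 with DESeq2, 0.312 without control replicate 2 and 0.227 without 2 h replicate 2) and Kctd6 (0.48 ± 0.09, edgeR adjusted p = 4.86e-06) rose and 2 did not pass. The 4 genes named for antisense transcription did not pass, with log2 changes of -0.15 to 0.09 over their own gene bodies. The study named them for RNA from the opposite strand upstream of the start, for which no separate count was made here. Rps3a1 is among the 4. Gm37933, at chr3:86142757-86145545 on the opposite strand, starts 55 bases from it and covers the region upstream of its start. Gm37933 rose by 3.01 ± 0.29 on the log2 scale. Whether it is the antisense RNA that the study named at Rps3a1 was not tested. Of 8 tested genes known for enhancer control, Sik1 (-0.33), Epha4 (-0.17) and Prdm14 (-0.30) were lower (2.7% of all genes) and 5 did not pass. None of these 3 passed with DESeq2 or without 2 h replicate 2. Sik1 did not without control replicate 2, and Epha4 did not without control replicate 1. Prdm14 did not pass whichever library was left out, and neither Prdm14 nor Epha4 passed with the replicate number as a block.

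Most gene families were close to the median of all genes, of which 2.7% were lower and 1.24% higher at an adjusted p under 0.05. None of the 20 tested genes of the CTCF and cohesin machinery passed the test, with a median log2 of -0.02, and Rad21, the kleisin subunit of cohesin, was at 0.02 ± 0.06. Mediator, with 30 genes, and clustered histones, with 51, had no member past the test. Of 85 transcripts of cytosolic ribosomal protein genes, 6 were lower and 2 higher (2.7% and 1.24% of all genes), with a median log2 of -0.01. Those with a fall or rise included Rpl36a, at 59.5 and 61.9 CPM in control and 31.3 and 33.1 CPM at 2 h (log2 -0.90 ± 0.12), Rpl5 (-0.60 ± 0.06), Rplp0 (-0.58 ± 0.07) and a long transcript of Rps14 (0.40 ± 0.06), whose shorter transcript was at 0.04 ± 0.06. Of 79 for mitochondrial ribosomal proteins, Mrps2 and Mrpl23 were lower and Mrps16 was higher. Of 28 RNA polymerase subunits, Polr2c, Polr3a and Polr2j (-0.45 ± 0.14) were lower, and of 45 proteasome genes, Psmd6, Psmd1 (-0.30 ± 0.06) and Psmg2 (-0.60 ± 0.16), against 2.7% of all genes. Polr2j and Psmg2 did not pass with DESeq2 (adjusted p = 0.39 and 0.177) or without control replicate 2 or 2 h replicate 1, and Polr2j did not without control replicate 1. Of 10 small nucleolar RNA host genes, Snhg17 alone passed. Of 20 collagen genes, Col27a1 was lower (-1.57 ± 0.22) and Col5a1 higher (0.59 ± 0.11).

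Protocadherins of the gamma cluster, cell adhesion genes with many alternative first exons, were the family with the largest share of members lower. Of 21 tested transcripts, 18 were lower at an adjusted p under 0.05 (2.7% of all genes) and 0 reached 2-fold, with a median log2 of -0.60. Their summed level was 2575 to 2617 CPM in control and 1671 to 1790 CPM at 2 h, without overlap. The decline was graded with the place of the first exon, from Pcdhga1 at 176 and 178 CPM against 103 and 95.1 CPM (log2 -0.84 ± 0.08) to Pcdhgc4 at 47.7 and 50.5 CPM against 47.9 and 42.4 CPM (log2 -0.14 ± 0.12). The counted bodies are nested on the same strand and share reads, so these 18 calls are not separate observations.

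Markers of the cell type showed small changes. Of 20 transcripts of 18 naive pluripotency genes, 5 were lower (2.7% of all genes), 0 of them by 2-fold, with a median log2 of -0.02 over the list and a summed level of 7698 to 7832 CPM in control and 7258 to 7265 CPM at 2 h. Zfp42, a marker of naive mESCs, had 1060 and 1070 CPM in control and 892 and 884 CPM at 2 h (log2 -0.26 ± 0.04, edgeR adjusted p = 1.39e-07). Nanog changed by -0.18 ± 0.05 and Pou5f1, which encodes OCT4, by -0.22 ± 0.07, with groups that did not overlap. Tbx3 changed by -0.16 ± 0.05. Nanog, Pou5f1, Tbx3 and Prdm14 did not pass with DESeq2, without control replicate 2 or without 2 h replicate 1, whereas Zfp42 passed with DESeq2. These markers of the labelled cell type were present in every library.

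Of 9 tested formative and primed genes, 0 passed, and none did among 3 trophoblast markers, 5 neural progenitor markers and 1 fibroblast marker. Of 8 primitive endoderm markers, Pdgfra, a growth factor receptor, had 16.1 and 15.6 CPM in control and 8.65 and 6.84 CPM at 2 h (log2 -1.06 ± 0.25, edgeR adjusted p = 0.00101), and Lama1, a laminin chain, changed by -0.20 ± 0.05. Neither passed with DESeq2 (adjusted p = 0.0673 and 0.0917) or without 2 h replicate 2, nor did Pdgfra without control replicate 2 (0.0513) or Lama1 without control replicate 1 (0.088). The summed level of these 8 was 436 to 447 CPM in control and 382 to 385 CPM at 2 h, and its part in other results was not tested. Among stress lists, Cdkn1a (-0.41 ± 0.07) and Tnfrsf10b (-0.37 ± 0.11) were lower of 23 p53 target transcripts, Hsp90ab1 (0.15 ± 0.04) was higher of 14 heat shock and unfolded protein genes, and Fos was higher of 15 immediate early genes, against 2.7% of all genes lower and 1.24% higher. Tnfrsf10b and Hsp90ab1 did not pass with DESeq2 (adjusted p = 0.259 and 0.183) or without control replicate 1 or 2 h replicate 1, and Tnfrsf10b did not without control replicate 2 (0.0763). No member passed among 13 Myc family, 12 ERK feedback and 9 Hox transcripts or 6 of the state that resembles the early embryo after its first division, and Peg10 (-0.68 ± 0.11) was the only imprinted gene of 18 to pass.

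At 4 h of dTAG-13 the changes were of like size. The 4 h comparison uses the same 2 controls, so its values are given side by side and not as a second test. The 93 genes had a median log2 of -1.37 at 2 h and -1.45 at 4 h, and the 21 higher genes 1.36 and 1.33. Tested directly without the controls, 4 h against 2 h gave 0 genes (0%) of 14222 at 2-fold (1115 at an unadjusted p under 0.05, and 0 with DESeq2), and 14 lower (0.0984%) and 4 higher (0.0281%) at an edgeR adjusted p under 0.05. Of the 93 genes, Snhg17 alone was among these. It measured 41.8 and 42.6 CPM at 2 h and 30.3 and 28.4 CPM at 4 h, a further log2 change of -0.53 ± 0.13 (edgeR adjusted p = 0.0335).

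The same genes were read in CTCF-AID cells, in which IAA had degraded CTCF without the mutation for 6 h, with 4 control and 4 treated libraries, 2 of each without and 2 with strand information. That comparison called 139 genes lower (0.89%) and 88 higher (0.564%) of 15611 tested. In these libraries same-numbered control and treated samples deviated together, and with the replicate number as a block the split turned, to 191 lower (1.22%) and 320 higher (2.05%). It was 161 and 188 without stranded IAA replicate 2, and 103 and 32 without unstranded control replicate 1, so whether lower or higher calls prevailed in CTCF-AID cells depends on the setting. Of the 92 genes called lower here that were tested there, 66 (71.7%) were called lower and 0 higher, and with the block 68 were lower and Pdgfra was higher (1.06 ± 0.15 on the log2 scale, edgeR adjusted p = 0.000318). Taken from the other side, 52.4% of the 126 genes lower there and tested here were called, and 42.5% of 160 with the block. The 92 genes had a median log2 of -1.47 in CTCF-AID cells. Of 20 higher genes tested there, 6 (30%) were called higher, which was 8.82% of 68 from the other side, and with the block 7 of 20 and 3.87% of 181. Adprhl2 changed by -2.19 ± 0.13 in CTCF-AID cells, Nle1 by -2.33 ± 0.12, Dph7 by -2.39 ± 0.12, and Gm37933 by 4.29 ± 0.24.

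A test of the difference between both responses called 3 of 13890 genes (0.0216%), and 871 had an unadjusted p under 0.05. With the replicate number as a block in both lines it called 112 (0.806%), 70 of them lower and 42 higher. Of the 92 genes called lower at 2 h, the blocked difference was called for 5, among them Snhg17, which was at -3.11 ± 0.13 in CTCF-AID cells with the block (difference 1.10 ± 0.22, edgeR adjusted p = 0.00967). Ppa2, the mitochondrial inorganic pyrophosphatase, fell by 0.92 here and by 2.03 on the log2 scale in CTCF-AID cells. Cobll1 and Gm13832 were at 0.03 and 0.25 here and at 3.60 and 1.61 there. The count was 0 when any YF-AA library or any CTCF-AID library without strand information was left out, and 25 with DESeq2. Lines, degrons, agents and times differ together between these experiments and cannot be told apart.

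A line with 2 tagged CTCF alleles was given the same compound with other CTCF left in place. In dN/dC cells, with delN CTCF under bTAG and CTCF delC under dTAG, dTAG13 for 2 h degrades the delC protein and leaves the delN protein. That comparison, with 2 libraries in each group, called 0 of 13618 genes (0%) with edgeR and with DESeq2, while 530 had an unadjusted p under 0.05. The 85 called lower genes tested there had a median log2 of -0.02, from -0.94 to 0.38. Snhg17 was at 0.10 ± 0.06 there, Adprhl2 at 0.10 ± 0.12 and Tab1 at 0.13 ± 0.08. The direct test of the difference called 75 genes lower (0.578%) and 8 higher (0.0616%) of 12982, and 67 of the 85 were among the 75. The 85 were chosen as low in the same YF-AA libraries that enter this difference, so the 67 are no separate evidence. The dose in dN/dC cells is 100 nM in the labels and 200 nM in the deposited column names. That of the YF-AA line is 200 nM in both, so whether the doses differ is not settled here. The dN/dC libraries hold strand information and the YF-AA libraries do not, so line and library type cannot be told apart in the test of the difference.

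**Figure D3:**
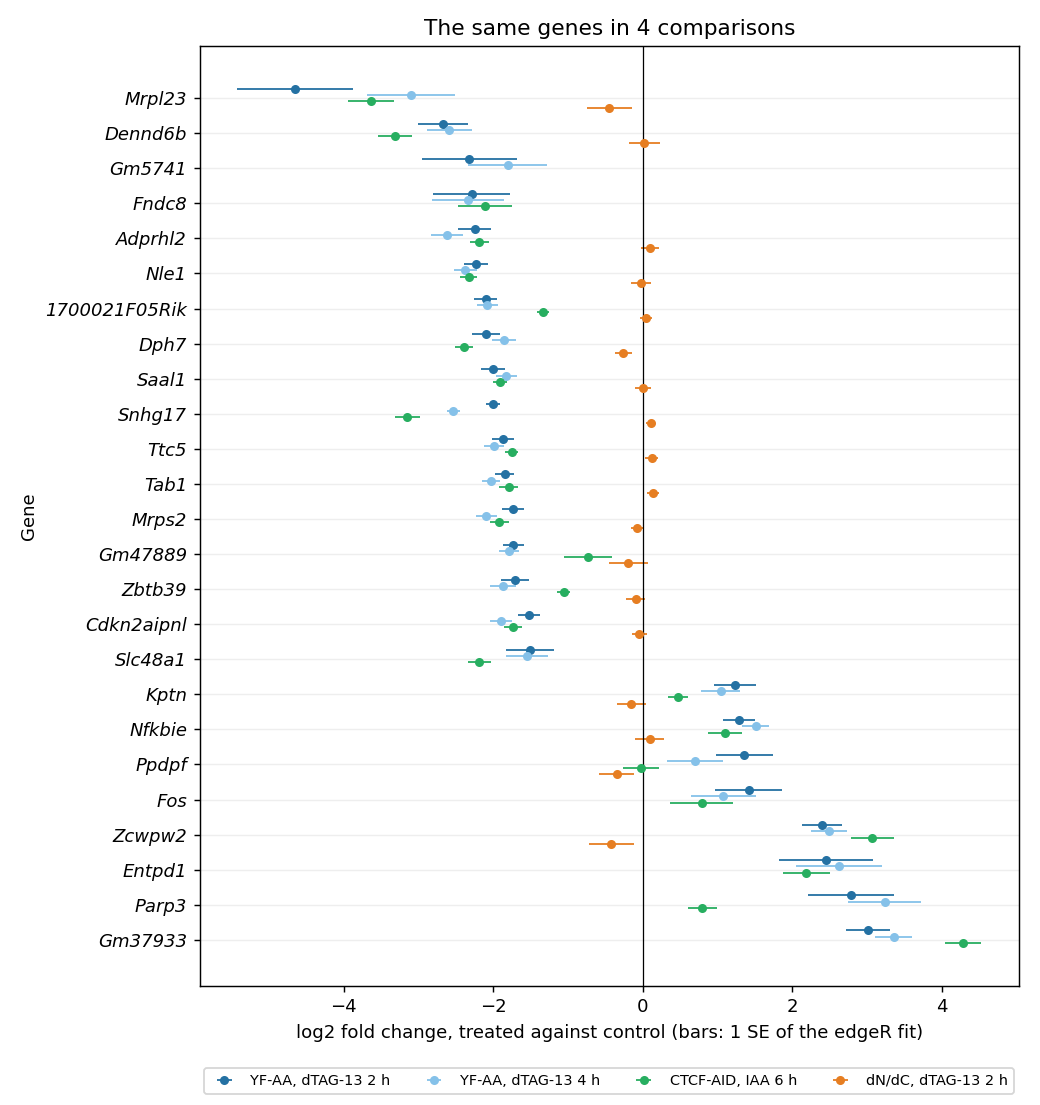
Log2 fold change of the 25 named genes against their own controls in 4 comparisons, with bars of 1 SE of the edgeR fit. The YF-AA line at 2 h and 4 h (which share controls) and CTCF-AID cells at 6 h lie on the same side of 0 for all genes with a value except Ppdpf, at -0.03 in CTCF-AID cells. In dN/dC cells the values run from -0.45 for Mrpl23 to 0.13 for Tab1.

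Exact matches to letters of the CTCF motif were more frequent near the starts of the genes that fell than over all genes. The search used the letters CCA, AG and GGC, each parted by 2 bases of any kind, on both strands, as marked in the promoters of Adprhl2, Ndufaf4 and Dennd6b above. An exact match was in the RefSeq promoter of 10 of 69 called lower genes (14.5%), in 9 in the sense orientation and in 1 in reverse, against 280 of 9728 promoters of all tested genes (2.88%). Among genes lower at an adjusted p under 0.05 the share was 13.8% of 260, and among genes higher at that limit 4.27% of 117. Among called higher genes it was 0 of 12. Counting matches with at most 1 mismatch, the shares were 62.3% of called lower, 50% of called higher and 38% of all promoters, with 55.8% and 51.3% of genes lower and higher at an adjusted p under 0.05, so at this looser match the share was above that of all promoters in both directions. These shares describe letters and not bound sites. The short form had no exact match at Mrpl23 or Psmd6, where the study mutated a CTCF motif. A missing match therefore does not mean a missing motif.

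Matches of called lower genes near the start site lay mostly in 1 place and orientation. Around the start site of the counted transcript, in the genome of the same build, 11 of 93 called lower genes (11.8%) had an exact match within 100 bases, all 11 in the sense orientation. Among 173 genes higher at an adjusted p under 0.05 the share was 4.05%, of both orientations. Over all tested genes it was 1.99%, and 1.24% for the sense orientation alone. In the 200 bases upstream of the start the share was 12.9% for called lower genes, 10.9% for genes lower at an adjusted p under 0.05 and 2.28% for all tested genes. For called higher genes it was 4.76%, and for genes higher at an adjusted p under 0.05 it was 3.47%. In the 200 bases downstream it was 2.15% for the called lower genes, 3.47% for genes higher at an adjusted p under 0.05 and 1.39% for all. Agfg1, Itga9, Fam199x and Rint1 were further called lower genes with a sense match in the upstream window. Spsb4, called higher, also had its nearest match in that window, in the sense orientation.

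**Figure D4:**
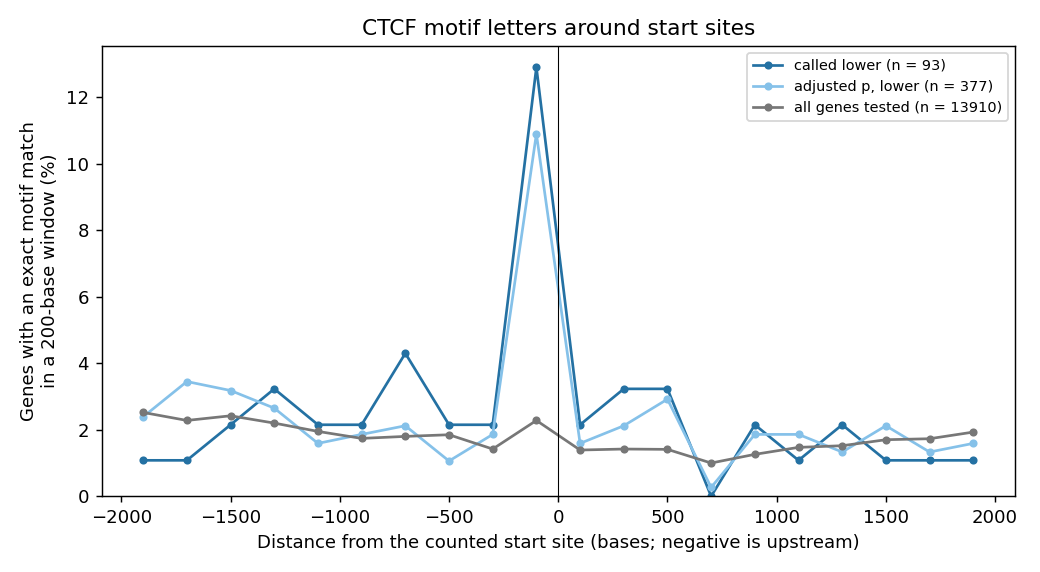
Share of genes with an exact match to the CTCF motif letters in either orientation, in windows of 200 bases by distance from the counted start site (negative is upstream), for the 93 called lower genes, the 377 genes lower at an adjusted p under 0.05 that have a start in the annotation, and all 13910 tested genes with one. The window just upstream of the start holds 12.9%, 10.9% and 2.28% of the genes.

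Genes of cholesterol synthesis and uptake rose at 2 h without reaching 2-fold. These genes share control by the SREBP transcription factors, and the list of 25 was drawn up after the values were seen. Of their 26 counted transcripts, 21 were higher at an edgeR adjusted p under 0.05, against 1.24% of all tested genes, and the median log2 was 0.51. With DESeq2 12 of 26 were higher, and leaving out 1 library at a time gave 14 to 20. Insig1, the sterol sensor that holds SREBP in the endoplasmic reticulum, had 95.1 and 84.6 CPM in control and 166 and 179 CPM at 2 h (log2 0.98 ± 0.08, edgeR adjusted p = 7.18e-33).

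Hmgcs1, the synthase that makes HMG-CoA, had 130 and 132 CPM in control and 208 and 217 CPM at 2 h (log2 0.70 ± 0.07). Fdps, the synthase of farnesyl diphosphate, went from 52 and 46.4 CPM to 88.1 and 69.6 CPM (log2 0.68 ± 0.11). Both treated libraries lay above both controls in each of these genes. Late enzymes of sterol synthesis moved alike, with Lss at 0.69 ± 0.08, Cyp51 at 0.63 ± 0.08 and the transcripts of Dhcr7 at 0.67 ± 0.11 and 0.68 ± 0.11 on the log2 scale. Ebp, Tm7sf2, Pmvk and Mvk did not pass.

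The rise was smaller at 4 h and was also found in dN/dC cells given dTAG13. Against the shared controls, the median log2 of the list was 0.27 at 4 h, with 12 transcripts higher (1.6% of all genes). In the direct test of 4 h against 2 h, 9 of 25 transcripts were lower (0.0984% of all genes) and 0 higher, among them Fdps (-0.54 ± 0.10, edgeR adjusted p = 8.06e-05) and Hmgcs1 (-0.39 ± 0.06, edgeR adjusted p = 3.75e-07). In dN/dC cells dTAG13 gave 8 of 25 transcripts higher, against 0.0734% of all genes there, with a median of 0.29. The 10 genes that passed upward in that comparison were these 8, Aacs and Scd2. AGB1, the compound that degrades the bTAG protein, gave a median of 0.10 over the list, and both compounds together gave 16 of 25 transcripts higher (2.04% of all genes), with a median of 0.41. The dN/dC treatments share their controls. The list was drawn up with results of these data known, and the 4 h against 2 h test reuses the 2 h libraries in which it was high. These counts are therefore no independent evidence.

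In CTCF-AID cells after IAA, 0 of 26 transcripts of the list were higher (1.57% of all genes), and the median was -0.13. With the replicate block 9 were lower and 2 higher, against 15.3% and 13.9% of all genes. The difference between the YF-AA and dN/dC responses passed for Insig1 (0.41, edgeR adjusted p = 0.00859; 0.347% of all genes higher) and for no other of 25. The difference to CTCF-AID cells passed for Hmgcs1 (0.93 ± 0.11, edgeR adjusted p = 0.0223; 0.0144% of all genes higher), and with the block 20 of 26 transcripts passed upward, against 1.78% of all genes. Both differences use the 2 h YF-AA libraries in which the list was high. Of 13 transcripts of fatty acid synthesis genes, Aacs (0.56 ± 0.09), Fasn (0.24 ± 0.05) and Acly (0.19 ± 0.05) were higher at 2 h. The part of the compound itself in this rise was not tested, as no untagged cells given dTAG-13 were analysed here.

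**Figure D5:**
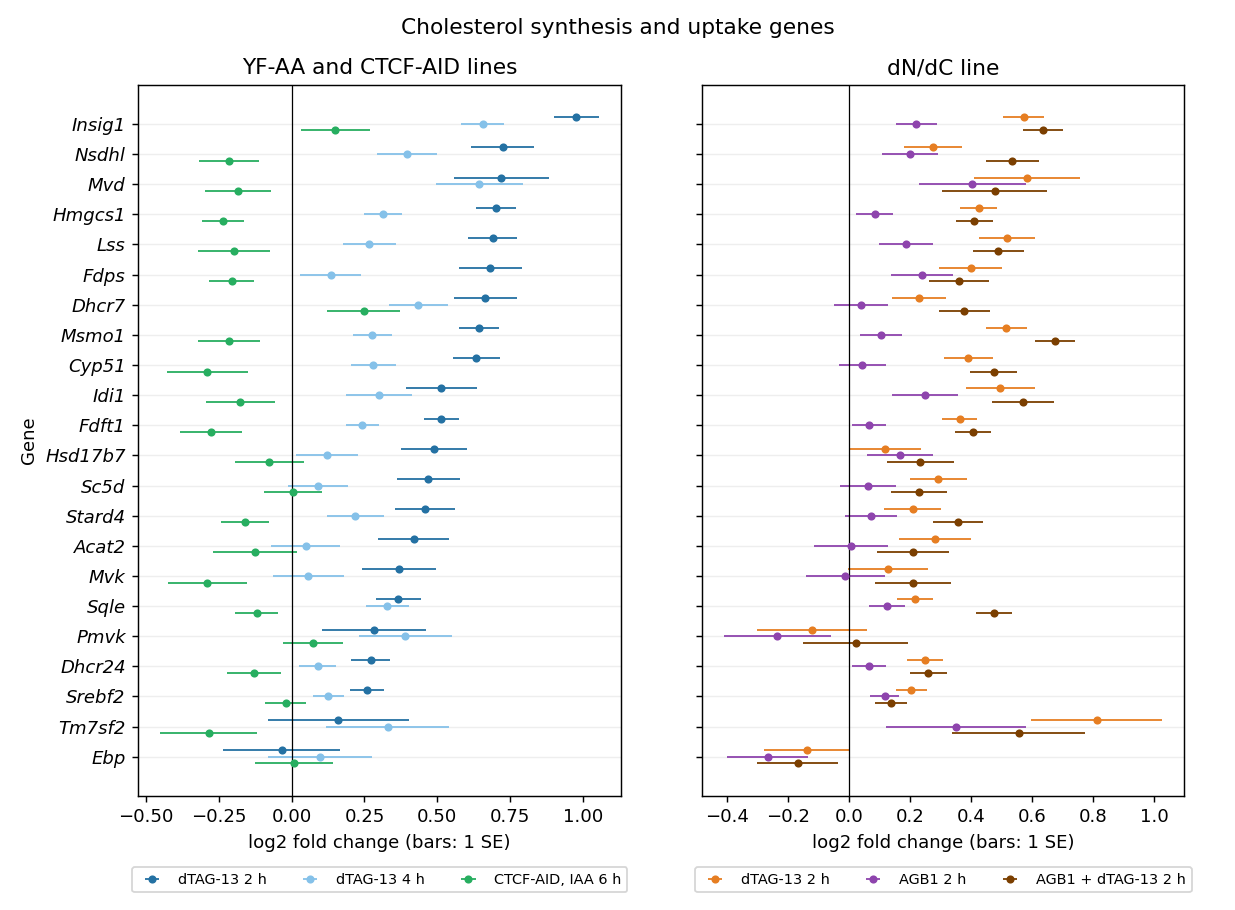
Log2 fold change against controls, with bars of 1 SE of the edgeR fit, of genes of cholesterol synthesis and uptake, ordered by the 2 h value in the YF-AA line. The left panel shows the YF-AA line at 2 h and 4 h and CTCF-AID cells at 6 h of IAA, the right panel dN/dC cells after dTAG-13, AGB1 or both, and Insig1 is highest at 2 h with 0.98. Some genes of the list are not shown.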

How the data were processed

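EU-seq was measured in 60 libraries, of which those in mESCs with tagged CTCF were used here. The authors trimmed reads with cutadapt, aligned them to mm10 with bwa, dropped poorly mapped reads (SAMtools 1.4 in the submitters' processing notes) and those on rRNA and tRNA genes (bedtools). HTSeq then summed reads over gene bodies of a representative transcript, introns included. The methods describe counting for 2 h treatments only up to a set distance from the start, which the column names of these libraries do not show, so whether long genes were counted in full is not settled and their TPM, scaled by full length, may be too low. The deposited values are raw counts per transcript and library, and the authors did not state whether the counting used strand in these libraries, which were made without strand information. Deposited column names give the first residue of the mutant as Y227A and the labels as Y226A, and the labels' treatment text describes a triptolide protocol that the titles do not name.

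Samples were grouped by the titles and treatment labels. Counts were tested with edgeR 4.0.16 (R 4.3.3, limma 3.58.1), quasi-likelihood F test, two-sided, TMM normalization, with Benjamini-Hochberg adjustment over all genes tested. Genes needed a mean count above 20 in either group. Log2 fold changes had the median of expressed genes (above 15 TPM over the gene body) subtracted, a shift of -0.007 at 2 h. Genes were called at an adjusted p under 0.05 and at least 2-fold. The CTCF-AID fit held library type as a covariate, and differences between responses were contrasts of treatment terms in a joint fit. Same-numbered CTCF-AID libraries deviated together (correlations of 0.498 without and 0.82 with strand information), so CTCF-AID results with the replicate number as a block are given beside the others. With 2 replicates in a group, both same-numbered pairs give the same value by construction. DESeq2 1.42.0 and other settings were alternatives. The fit was tested on simulated data.

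Gene names and positions came from GENCODE M21, which matched 27455 of 27665 transcripts. RefSeq promoters matched by symbol, chromosome and strand with start sites within 500 bases of each other for 15959 transcripts. Genes named by size were the 14 largest decreases and 5 increases (all there were) among called expressed genes, then the 3 largest of each direction among other called genes, with groups that did not overlap. Members and lists were chosen with earlier results of these data known. Columns not mapped to a sample numbered 0. Some genes are not reported here by name.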

Additional observations from a re-analysis of the deposited data

Results flagged for a closer look

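Responses that differed between lines, each by a direct test of the difference in edgeR, were set apart for a closer look. Between the YF-AA line at 2 h and CTCF-AID cells at 6 h, 3 genes were called, and 112 with the replicate number as a block. The differences (YF-AA minus CTCF-AID, log2) were -3.56 for Cobll1, -1.37 for Gm13832 and 1.10 for Ppa2, and Hmgcs1 passed without reaching 2-fold, at 0.93.

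Between the YF-AA line and dN/dC cells after 2 h of dTAG13, 83 genes were called. Among the named genes the differences (YF-AA minus dN/dC, log2) were downward for Mrpl23 at -4.20, Dennd6b at -2.70, Adprhl2 at -2.37, Nle1 at -2.21, 1700021F05Rik at -2.14, Snhg17 at -2.11 and Saal1 at -2.01. Smaller ones were those of Ttc5 at -1.99, Tab1 at -1.96, Dph7 at -1.82, Mrps2 at -1.69, Zbtb39 at -1.61, Gm47889 at -1.54 and Cdkn2aipnl at -1.47. Upward differences were those of Zcwpw2 at 2.81, Ppdpf at 1.70, Kptn at 1.39, Nfkbie at 1.19 and Insig1 at 0.41. These genes were chosen from values of the YF-AA libraries that also enter the differences, so the differences are no separate evidence of a change. Lines differed in this comparison, and the label doses did too. The dN/dC libraries hold strand information and the YF-AA libraries do not, so line and library type cannot be told apart. Whether this bears on the differences of 1700021F05Rik and Gm47889, which lie on opposite strands, was not tested.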

How the results depend on the processing

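No named gene that passed the test at 2 h, or under the other setting, reversed its direction where it was tested. Sign changes of genes that passed in neither were not counted. The split of CTCF-AID calls turned from 139 lower and 88 higher to 191 and 320 with the replicate block and to 161 and 188 without stranded IAA replicate 2, and that of the difference to YF-AA from 2 lower and 1 higher to 12 and 13 with DESeq2 and to 8 and 10 without that replicate. The called lower genes at 2 h numbered 75 to 99 when 1 library was left out, and the called higher genes 13 to 22 (13 without control replicate 1), with 4 under DESeq2. The replicate numbers did not pair the YF-AA samples (correlation of the deviations of same-numbered libraries -0.00998) or those of dN/dC (0.0222). With the replicate number as a block 87 genes were lower and 11 higher at 2 h. With that block CTCF-AID at 6 h gave 511 called genes and its difference to YF-AA 112. Leaving out 1 library gave 135 to 349 for CTCF-AID (349 without stranded IAA replicate 2), 0 to 18 for the difference to YF-AA, 0 to 5 for 4 h against 2 h and 0 to 3 for dN/dC. DESeq2 gave 25 for the difference to CTCF-AID. Without the count filter the calls were 1 for 4 h against 2 h, 1 for the difference to CTCF-AID and 1 for dN/dC.

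Fold classes at 2 h are given as shares of the genes in each setting, since these differ in number. Against 0.129% (above 2-fold), 0.847% (1.5 to 2-fold) and 2.25% (1.3 to 1.5-fold) for rises and 0.547%, 1.22% and 1.9% for falls, the shares without the TPM limit were 0.521%, 2.16% and 3.86% for rises and 0.857%, 1.89% and 2.83% for falls. Leaving out 1 library gave 0.203 to 0.569%, 0.898 to 2% and 2.43 to 3.88% for rises, and 0.597 to 0.804%, 1.4 to 1.98% and 2.18 to 3.57% for falls, with the largest shares of rises without control replicate 2. The motif share of called lower genes was 62.3% with at most 1 mismatch and 44.1% within 2000 bases of the counted start, a window chosen after seeing the data, against 38% and 29.3% of all tested genes. The cause of these moves was not tested. Among 25 genes named by size, some were tested but no longer passed under some setting, namely Gm5741, Fos, Ppdpf, Kptn, Parp3, Entpd1 and Fndc8. DESeq2 gave 18 of the 25 an adjusted p, and the genes without one were not called by it and are not counted in this list for that reason. Depth of the shallower replicate 1 libraries limits genes of few counts, such as Mrpl23.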
